A study of Mus musculus with 2 samples.

Results

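The genes described here encode 8 large proteins that tie actin filaments to one another, to myosin and to the cell surface. They are the filamins Flna and Flnc, the alpha-actinins Actn1 and Actn4, the non-muscle myosin II heavy chains Myh9 and Myh10, and the adhesion proteins talin-1 (Tln1) and vinculin (Vcl). They were taken by gene symbol from a fixed list, and all 8 had reads in both libraries, out of 14198 annotated genes with at least 1 read. Long-read RNA sequencing gave 2 libraries of 1 group, biological replicates 1 and 2 of C2C12, a myoblast cell line made from injured thigh muscle of C3H mice. No gene was altered and no treatment or time point is given, and neither the state of differentiation nor the sequencing platform is named, nor whether the replicates are separate cultures. The series therefore holds no comparison of conditions, and the questions that can be put to it are how abundant each gene was, how much of each transcript the reads covered, which annotated exons were used, and how far the 2 libraries differed.

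Filamins are rod-shaped dimers that join actin filaments at wide angles and anchor them to membrane receptors, and alpha-actinins are antiparallel dimers that bundle filaments lying side by side. Non-muscle myosin II pulls on those filaments, while talin links integrins to actin and vinculin strengthens that link under force. In myoblasts these proteins build stress fibres and adhesions, and Flnc belongs to the filamins best known from striated muscle.

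The libraries held 791850 and 735077 reads, of which 773408 and 722647 lay on annotated genes. Levels are CPM, read counts scaled to the total of annotated-gene reads, and 3 reads, the limit that a count of 0 allows, make 3.88 CPM in replicate 1 and 4.15 CPM in replicate 2. All 6 myoblast markers were read in both libraries and summed to 1874 and 2444 CPM. Contractile skeletal muscle genes summed to 1703 and 1486 CPM, with 6 of 7 read in both libraries. Of 5 smooth muscle markers 3 were read in both, summing to 97.0 and 76.1 CPM, and the defining markers Myh11 and Myocd had 0 reads. The lists for endothelial, blood, adipocyte, neural and glial, and epithelial cells summed to between 0 and 8.30 CPM in each library. In such bulk RNA, fewer cells of a type and less RNA per cell cannot be told apart. P-values here measure only the spread between these 2 libraries against counting error, and intervals and limits cover counting error only.

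Actn4 and Flna dominated the group. The 8 genes together took 557 reads in replicate 1 and 498 in replicate 2, a summed level of 720 and 689 CPM (mean 704.7 ± 21.96, SD, n = 2), and Actn4 and Flna supplied 67.7% and 72.5% of these sums. A level in CPM takes each read as 1 molecule. Levels of different genes were also compared per kilobase (kb) of a reference transcript, the annotated coding transcript with the most reads or, where none had any, the longest. In Flna 100% of reads ended in the last exon, and their median reach was 1250 of 8456 bases over both libraries. Where each read is 1 molecule, dividing by the whole length can lower long genes. An order that turns between CPM and CPM per kb is therefore not settled here.

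Among the alpha-actinins, Actn4 (ENSMUSG00000054808.15, mm10 chromosome 7, 28893248 to 28962340, minus strand) had 226 and 228 reads, or 292 and 316 CPM (304 ± 16.5, SD, n = 2). Actn1 (chromosome 12, 80167547 to 80260371, minus strand) had 16 and 8 reads, or 20.7 and 11.1 CPM (15.9 ± 6.80, SD, n = 2). The Actn4 values lay far above those of Actn1 in both libraries, with a ratio per kb of 13.6 in replicate 1 and 27.4 in replicate 2. The ratio of replicate 2 rests on only 8 Actn1 reads. Spliced reads, those with at least 2 exons, were only 6 of the 16 and 2 of the 8 Actn1 reads. On spliced reads Actn1 stood at 2.08 and 0.741 CPM per kb and Actn4 at 68.7 and 76.4.

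Of the filamins, the broadly expressed Flna was the higher. Flna (ENSMUSG00000031328.15, chromosome X, 74223461 to 74249820, minus strand) had 151 and 133 reads, or 195 and 184 CPM (190 ± 7.92, SD, n = 2). Flnc (chromosome 6, 29433256 to 29461883, plus strand) had 19 and 14 reads, or 24.6 and 19.4 CPM (21.97 ± 3.67, SD, n = 2). Per kb, Flna stood 8.49-fold above Flnc in replicate 1 and 10.2-fold in replicate 2, and the 2 genes did not overlap.

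The myosin heavy chains showed a smaller gap. Myh9, the heavy chain of non-muscle myosin IIA (chromosome 15, 77760587 to 77842175, minus strand), had 44 and 35 reads, or 56.9 and 48.4 CPM (52.7 ± 5.98, SD, n = 2). Myh10, the heavy chain of myosin IIB (chromosome 11, 68691559 to 68816632, plus strand), had 9 and 12 reads, or 11.6 and 16.6 CPM (14.1 ± 3.51, SD, n = 2). The ratio per kb was 5.12 in replicate 1 and 3.06 in replicate 2, with Myh9 the higher in both libraries. On spliced reads, 11 and 12 in Myh9 and 8 and 7 in Myh10, the gap was far narrower. Myh9 then stood at 1.91 and 2.23 CPM per kb and Myh10 at 1.33 and 1.24. The size of the gap thus rests largely on Myh9 reads that show no splicing.

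The adhesion genes lay close together. Tln1 (chromosome 4, 43531519 to 43562691, minus strand) had 52 and 36 reads, or 67.2 and 49.8 CPM (58.5 ± 12.3, SD, n = 2). Vcl (chromosome 14, 20929398 to 21033676, plus strand) had 40 and 32 reads, or 51.7 and 44.3 CPM (48.0 ± 5.26, SD, n = 2). Their order turned with the scale: Tln1 exceeded Vcl by 1.3 and 1.12 times in CPM, and per kb it stood at 0.816 and 0.706 times Vcl.

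**Figure D1:**
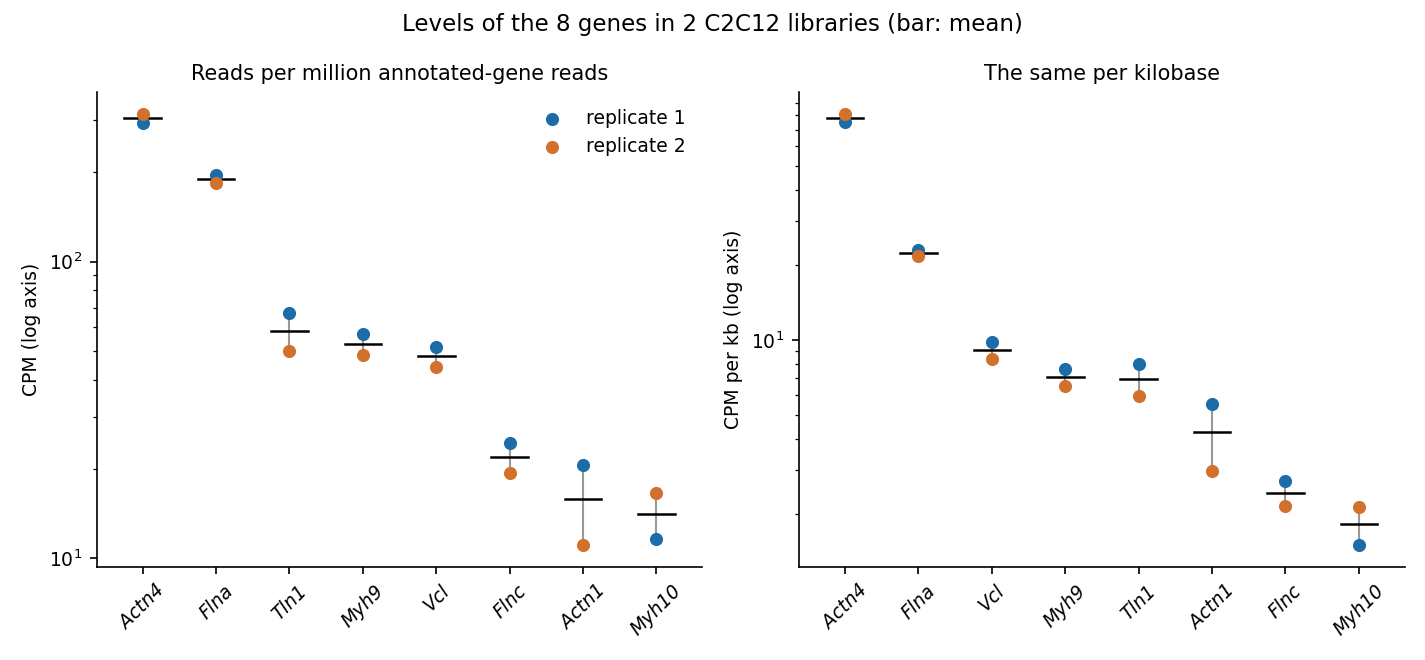
Levels of the 8 genes in CPM (left) and in CPM per kb of the reference transcript (right), both on log axes, with 1 point per library and a bar at the mean of 2. Actn4 and Flna stand above the other 6 genes on both scales, and Vcl moves from the fifth place in CPM to the third place per kb.

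In order of level per kb, the genes ran from Actn4 (75.4 and 81.4 CPM per kb) through Flna (23.1 and 21.8), Vcl (9.82 and 8.41), Myh9 (7.65 and 6.52) and Tln1 (8.01 and 5.94) to Actn1 (5.54 and 2.96), Flnc (2.72 and 2.14) and Myh10 (1.49 and 2.13). The ranges of Myh9 and Tln1 overlapped, so these neighbours did not differ beyond their spread. Flnc and Myh10 were separated only by values of 2.14 and 2.13 per kb, each from fewer than 20 reads in a library. On spliced reads alone the ranges of Actn1 (2.08 and 0.741) and Flnc (1.43 and 1.38) overlapped, so their order is not settled.

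No member passed the test of a difference between the libraries. Of 8 genes tested, 0 passed an exact binomial test of replicate 2 against replicate 1 with Benjamini-Hochberg adjustment over all genes, and 0 had an unadjusted p under 0.05. Over all 8940 genes tested, 3.98% were called, 124 higher in replicate 2 and 232 higher in replicate 1, and 1246 had an unadjusted p under 0.05. With that background, 0 of 8 is not a result about these genes. The widest ratio was that of Actn1, whose log2 ratio of replicate 2 over replicate 1 was -0.86 (SE 0.61, adjusted p = 0.586, exact binomial). Actn4 had the most reads and a log2 ratio of 0.11 (SE 0.14, adjusted p = 0.823, exact binomial). The median log2 ratio was -0.22 over the 8 genes and 0.06 over all genes tested. With TMM scaling the calls over all genes became 82 higher in replicate 2 and 303 higher in replicate 1, and with DESeq2 size factors 78 and 315, again with 0 members among them.

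Among relatives of these genes, Actn3, a sarcomeric alpha-actinin, stood at 45.8 ± 12.0 CPM and Tln2, the second talin, at 26.6 ± 4.39 CPM (SD, n = 2), and neither passed the test between the libraries. Actn2, the other sarcomeric alpha-actinin, had 0 and 2 reads, and Myh14, the heavy chain of myosin IIC, had 0 in both. The light chains of myosin II were far more abundant in CPM than either heavy chain. Of 10 light chains and regulators, 9 were read in both libraries, and 2 of the 9 tested were higher in replicate 1, against 232 of all 8940 genes tested. These were Myl12a, a regulatory light chain (2307 and 2062 CPM, adjusted p = 0.0399, exact binomial), and Myl6, the essential light chain (2145 and 1526 CPM, adjusted p = 5.63e-16, exact binomial). Myl9, another regulatory light chain, stood at 534 ± 5.78 CPM (SD, n = 2), and the near-identical Myl12a and Myl12b may share reads.

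All 14 focal adhesion partners were read in both libraries. Zyx, which encodes zyxin, a protein of mature adhesions, led them with 699.5 and 861 CPM and was the 1 member of that list that differed, higher in replicate 2 (adjusted p = 0.0156, exact binomial). Ilk, a scaffold at integrin tails, had 423 ± 17.5 CPM and Itgb1, the beta-1 integrin, 347 ± 6.02 CPM (SD, n = 2). All 16 other crosslinkers and linkers were also read in both. Cald1, an actin-binding regulator of myosin, had 488 ± 42.7 CPM, Pdlim7 224 ± 14.5 and Pls3, a filament-bundling plastin, 209 ± 28.9 (SD, n = 2). Sptan1, the alpha-spectrin of non-erythroid cells, was the 1 that differed, with 28 and 7 reads (adjusted p = 0.0297, exact binomial). All 14 and all 16 genes were tested. With 3.98% of 8940 genes called over all, 1 call in each list is not read as a trait of the list.

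Few reads of these long transcripts lay on models that ran from start to stop codon, and Actn4 was the exception. A deposited transcript model was counted as spanning the coding sequence where it covered the reference transcript from its start codon to its stop codon. The measure uses the ends of the model, and an annotated model has the annotated ends. Most spanning reads of Actn4, 146 and 160, lay on the annotated Actn4-201, so where the reads themselves began and ended is not shown. For Actn4 that held for 159 of 226 reads in replicate 1 (70.4%, Wilson 95% interval 64.1 to 75.9) and for 170 of 228 in replicate 2 (74.6%, 68.5 to 79.8). For Vcl it held for 5 of 40 and 5 of 32 reads, or 12.5% (5.46 to 26.1) and 15.6% (6.86 to 31.8). Actn1, whose reference is no longer than that of Actn4, had 2 of 16 and 0 of 8.

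The remaining 5 genes had no such read in either library. Over both libraries the counts were 0 of 284 reads in Flna, which allows a share of up to 1.06%, 0 of 88 in Tln1 (up to 3.41%), 0 of 79 in Myh9 (up to 3.80%), 0 of 33 in Flnc (up to 9.09%) and 0 of 21 in Myh10 (up to 14.3%). Their reference transcripts are 7.43 to 9.04 kb long.

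**Figure D2:**
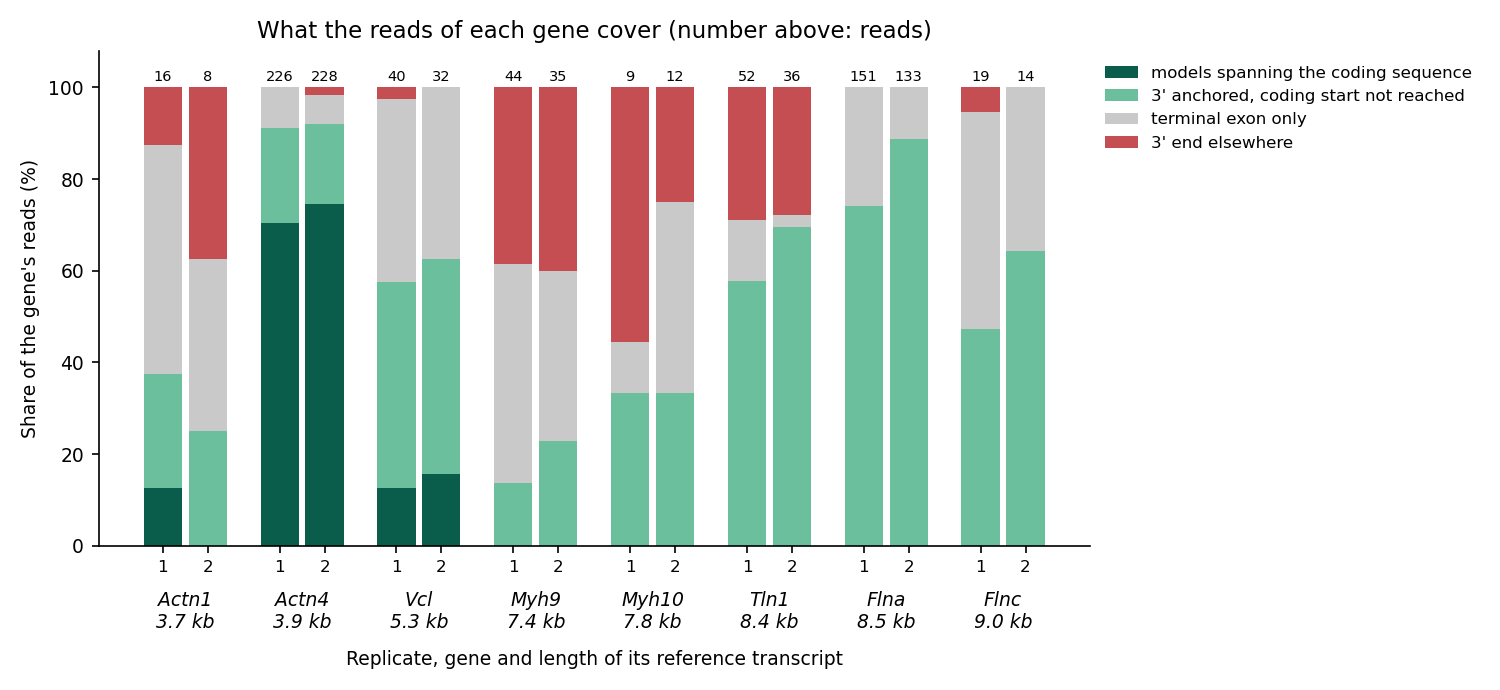
Share of each gene's reads by what the model covers, in percent, with 1 bar per library, genes ordered by reference length and the number of reads above each bar. Reads spanning the coding sequence (dark green) make up 70.4% and 74.6% in Actn4, are present in Vcl and in replicate 1 of Actn1, and are at 0 in the 5 genes over 7 kb.

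Set against 4576 protein-coding genes with at least 50 reads, the share of reads spanning the coding sequence fell with reference length up to 10 kb. The median was 96.2% for 506 references under 1 kb, 82.1% for 703 of 3 to 4 kb, 72.3% for 130 of 5 to 6 kb and 48.3% for 79 of 7 to 10 kb, and then 78.0% for the 16 from 10 kb up. Of the 79 genes of 7 to 10 kb 21 (26.6%) had no such read, among them Flna, Myh9 and Tln1, and so had 7 of the 16 longer ones. Flnc, Actn1 and Myh10 fell short of 50 reads. Actn4 at 72.5% over both libraries lay below the median of its class, and Vcl at 13.9% lay far below its own. These are descriptions with no test.

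The length of a gene here depends partly on its reads, because a gene with no read on a coding transcript takes its longest one as reference. That held for 23 of the 79 genes of 7 to 10 kb and 8 of the 16 longer ones, against 12 of 703 of 3 to 4 kb, and for Flna, Flnc, Myh9, Myh10 and Tln1 among the members. Without such genes the median was 68.5% at 7 to 10 kb. With the longest coding transcript as the reference of every gene, the medians were 82.4% at 3 to 4 kb, 67.6% at 5 to 6 kb, 38.9% at 7 to 10 kb and 21.4% for 34 genes from 10 kb up.

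**Figure D3:**
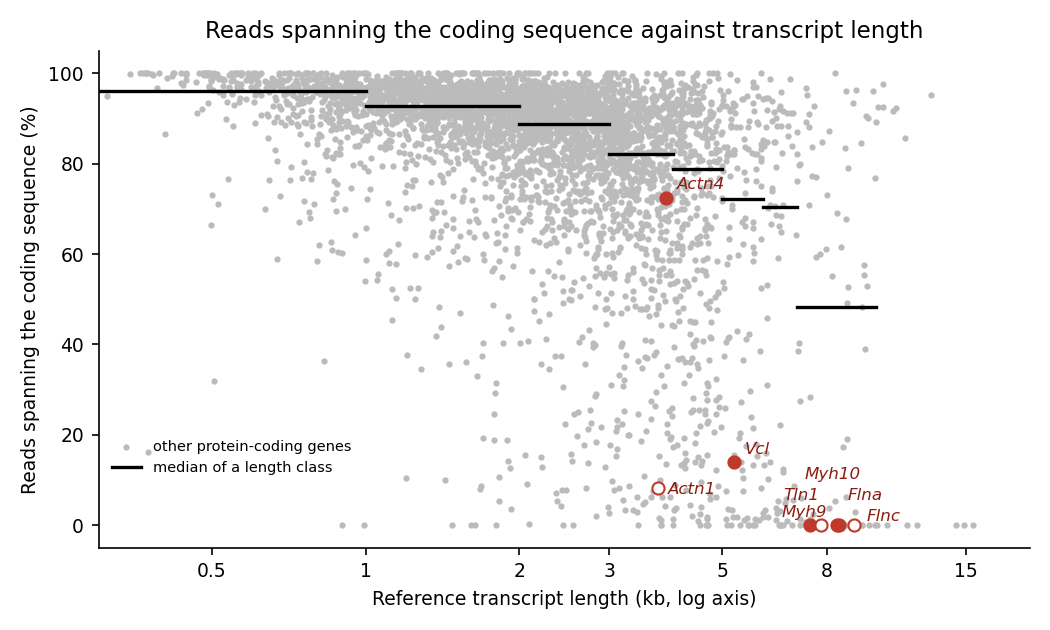
Share of reads spanning the coding sequence (percent, both libraries) against reference transcript length (kb, log axis) for protein-coding genes with at least 50 reads in grey; red points are the members, open where they have fewer reads, and black lines are medians of length classes. Actn4 lies near the other genes of its length, and the 5 members over 7 kb lie at 0.

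The authors' model classes give a second measure of completeness. Complete models are annotated ones (Known), new combinations of annotated splice sites (NIC) and chains with an unannotated site (NNC). Actn4 had 172 of 226 reads on them in replicate 1 (76.1%) and 177 of 228 in replicate 2 (77.6%), and Vcl had 6 of 40 (15%) and 5 of 32 (15.6%). In Flna the 3 and 5 complete reads were all NIC or NNC models that covered only part of the transcript, so the class does not stand for a full-length read. Of 5 members with at least 20 reads in each library, 0 passed the test of this share (Fisher's exact test adjusted over all genes; 0 at an unadjusted p under 0.05). Over all 4960 genes tested 4.05% were called, 196 higher in replicate 2 and 5 higher in replicate 1, and 672 had an unadjusted p under 0.05. With the span of the coding sequence in place of the class, 5.19% of 4794 genes were called and again 0 of 5 members.

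Splice junctions show how far toward the 5′ end the reads went. The reference of Flna has 46 junctions. The last, nearest the 3′ end, was read 111 and 117 times, the junction 1.25 kb from the 3′ end 49 and 71 times, the one 3.06 kb away 10 and 16 times, and the one 5.68 kb away 0 times and 1 time. The first 16 junctions had no read in either library. Flna junction counts thus fell from the 3′ end, though not at every junction. Junction 29 was read 1 and 9 times, against 7 and 11 at junction 28 and 10 and 16 at junction 30. This junction joins the exons on either side of the 24-base exon of Flna-201 described below. The 7 and 4 reads that included that exon therefore do not hold it. Of the 2 and 9 reads that skipped the exon, 1 in replicate 1 used an unannotated splice. The low count at junction 29 is thus not a gap in coverage. Replicate 2 reached further, with 30 junctions read against 24. That is not particular to Flna. More junctions were also read in replicate 2 in Flnc (17 against 15), Myh9 (33 against 27), Myh10 (40 against 36) and Tln1 (56 against 39). Actn1 went the other way (9 against 20), and Actn4 and Vcl had all 20 in both libraries. On complete share, a different measure, 196 of the calls over all genes were higher in replicate 2 and 5 in replicate 1.

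Flnc behaved alike at lower depth. Its last junction was read 8 and 9 times, and the first 30 of its 47 junctions had no read. In Vcl all 20 junctions were read, from 22 and 20 reads at the last to 5 and 5 at the first. In Actn4 the last junction had 206 and 210 reads and the first still had 159 and 173. Actn1 had all 20 junctions in replicate 1, through 2 reads on Actn1-201, and only 9 in replicate 2.

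**Figure D4:**
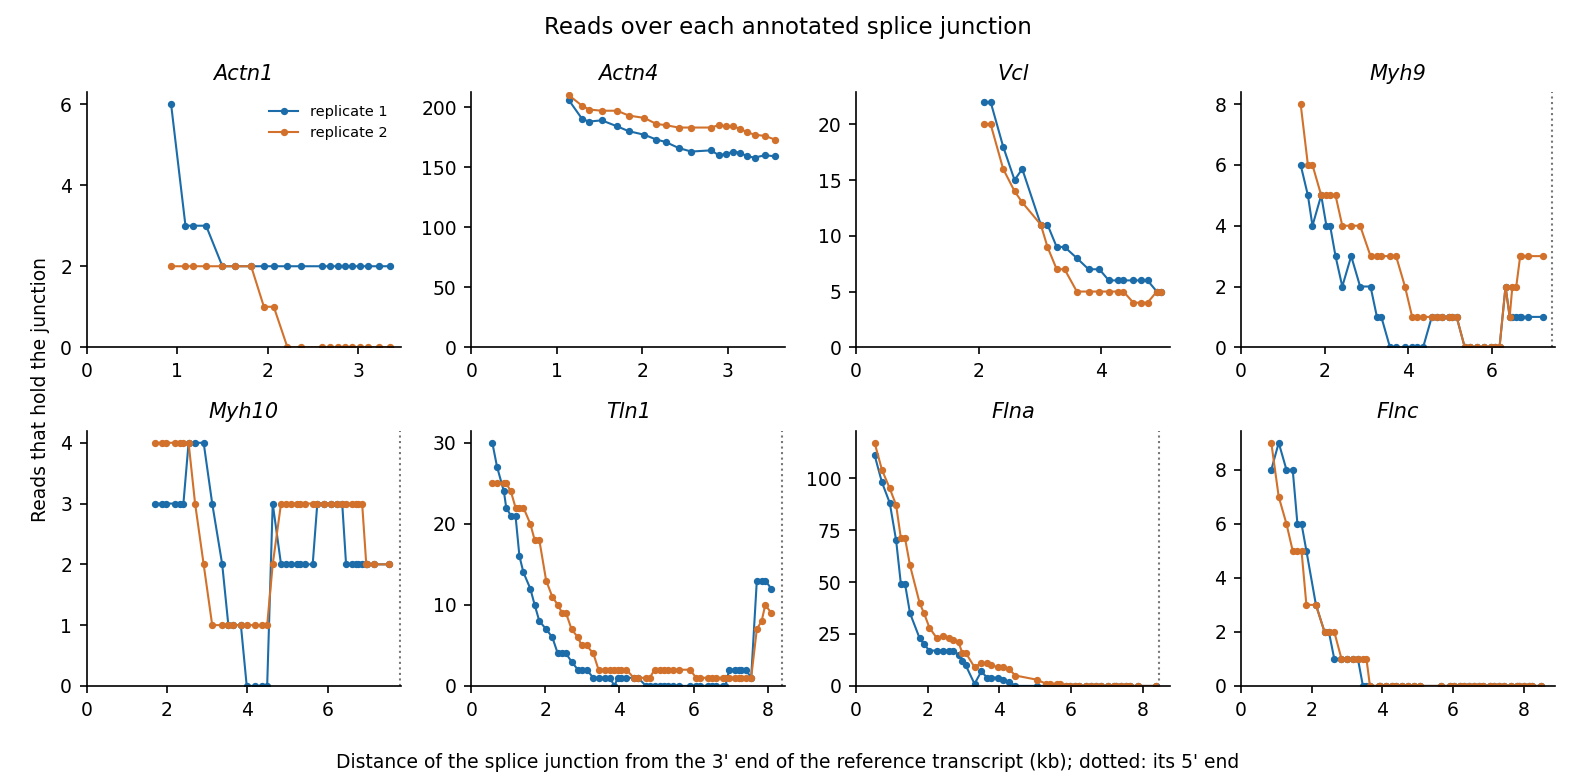
Reads that hold each annotated splice junction against its distance from the 3′ end of the reference transcript (kb), 1 line per library and 1 panel per gene. Counts fall from the 3′ end in Flna, Flnc and Vcl, fall less in Actn4, from 206 and 210 at the last junction to 159 and 173 at the first, and rise again near the 5′ end in Tln1, Myh9 and Myh10.

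The myosin heavy chains and talin differed from the filamins: part of their reads lay at the 5′ end of the gene. In Tln1, 15 of 52 reads (28.8%) and 10 of 36 (27.8%) ended outside the last exon. Most of them, 12 and 7 spliced reads, ended 38 bases into intron 5 (mm10 chr4:43555564), at the annotated end of the processed transcript Tln1-204. The first junction of Tln1 was therefore read 12 and 9 times, while the fifth was read 1 and 1 times. Spliced reads of the members that ended outside the last exon did so on an annotated exon edge, except 1 read in Flnc and 1 in Myh9. Such 3′ ends may be known only to the nearest annotated edge. The match with the end of Tln1-204 is thus not independent support for that transcript.

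In Myh10, 5 of 9 and 3 of 12 reads ended outside the last exon. Among them, 2 and 1 reads ran through 23 exons from the 5′ end and stopped at chr11:68790239 in exon 23, the annotated end of the short transcript Myh10-209. This match carries the limit given for Tln1, since the other reads that ended outside the last exon also stopped on annotated exon edges. Together with reads from the 3′ end, 36 of the 40 junctions of Myh10 were read in replicate 1 and all 40 in replicate 2, although no model covered the whole coding sequence. Junctions 23 to 26 were read once, in replicate 2, by a model that reached neither end of the transcript. The longest model from the 3′ end covered 3986 of 7791 bases.

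In Myh9, 17 of 44 reads (38.6%) and 14 of 35 ended outside the last exon. A single unspliced stretch in intron 1 (chr15:77835061-77836830) held 8 reads in replicate 1 and 9 in replicate 2, and its end matched no annotated transcript end in either library. A further 2 and 2 spliced reads ended in intron 9 at the annotated end of Myh9-205, a retained-intron transcript. The match of these spliced reads carries the limit given for Tln1. Counting only models with at least 2 exons, Myh9 kept 11 and 12 reads, Vcl 23 and 20, and Tln1 45 and 35. In CPM Myh9 was then below Vcl, so its place above Vcl on that scale rests on reads that show no splicing. Per kb, Myh9 was below Vcl on all reads as well. The order of Tln1 and Vcl per kb also turned: on these models Tln1 stood at 6.93 and 5.77 CPM per kb and Vcl at 5.65 and 5.25.

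Reads lying wholly in the last exon were common in several members. They made up 39 of 151 and 15 of 133 reads in Flna, 21 of 44 and 13 of 35 in Myh9, 16 of 40 and 12 of 32 in Vcl, and 20 of 226 and 14 of 228 in Actn4. The counts were 8 of 16 and 3 of 8 in Actn1, and 9 of 19 and 5 of 14 in Flnc. Tln1 had 7 of 52 and 1 of 36, and Myh10 had 1 of 9 and 5 of 12. In Vcl, 16 and 12 unspliced reads overlap Ap3m1, a gene on the other strand with 49 and 54 reads. In Actn4, 20 and 4 overlap the end of Capn12, which had 0 reads. Whether counting used strand is not given in the sources used here, so these reads are uncertain.

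The 5′ ends of partial models carry less information than the junctions. All 497 spliced reads of the 8 genes on models other than Known ended, at the 5′ side, exactly on an annotated exon edge, and 221 of them on the start of an annotated transcript. The position of a partial read's 5′ end is therefore known only to the nearest annotated edge. This bears on Flna, in which 22 of 112 and 28 of 118 spliced reads lay on models whose first exon ran across an annotated intron. Intron 40 (155 bases) was covered in this way by 27 reads and intron 37 (82 bases) by 10. Later exons of a model seldom ran across an annotated intron, with 9 such cases at 8 introns of 5 genes. They were 1 in Flna intron 42 of 121 informative reads, 1 in Actn4 intron 15 of 383 and 1 in intron 14 of 369, 1 in Tln1 intron 54 of 50 and 1 in intron 4 of 21. In Myh9 they were 2 of 4 in intron 7 and 1 of 11 in intron 38, and in Flnc 1 of 12 in intron 43.

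Alternative exons were countable where reads crossed both flanking junctions. Alpha-actinins carry mutually exclusive exons at 2 places: an 86-base exon in the actin-binding domain, and an 81-base or 66-base exon in the calmodulin-like domain, where the 81-base form is known from non-muscle and the 66-base form from smooth muscle Actn1. The Actn4 pair for the actin-binding domain, of Actn4-201 (chr7:28911490-28911575) and Actn4-202 (chr7:28909903-28909988), is shown because nearly every read held the first. Capitals mark the 21 of 86 bases at which the 2 exons differ (75.6% identical). All exon sequences here are GENCODE M21 reference on mm10, sense strand, 5′ to 3′.
Actn4 86-base exon of Actn4-201: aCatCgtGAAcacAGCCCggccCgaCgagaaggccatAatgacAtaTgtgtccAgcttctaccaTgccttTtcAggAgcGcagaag
Actn4 86-base exon of Actn4-202: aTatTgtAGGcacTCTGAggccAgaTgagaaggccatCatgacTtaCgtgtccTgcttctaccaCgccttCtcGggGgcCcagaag

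The exon of Actn4-201 was included in 162 of 163 informative reads in replicate 1 and in 184 of 184 in replicate 2, 99.7% over both (Wilson 95% interval 98.4 to 99.9). The exon of Actn4-202 was in 2 of 163 and 0 of 185 reads. In 1 of these 2 reads it stood beside the other 86-base exon, and in 1 it replaced it.

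At the calmodulin-like domain, the exons of Actn4 (chr7:28895432-28895512 and chr7:28895121-28895186) and of Actn1 (chr12:80170686-80170766 and chr12:80170183-80170248) are shown side by side, since both genes have the same pair of lengths. Capitals mark bases that differ between the 2 genes, 23 of 81 in the longer exon (71.6% identical) and 17 of 66 in the shorter (74.2% identical).
Actn4 81-base exon: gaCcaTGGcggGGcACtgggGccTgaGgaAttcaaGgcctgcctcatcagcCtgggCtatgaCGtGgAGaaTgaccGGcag
Actn1 81-base exon: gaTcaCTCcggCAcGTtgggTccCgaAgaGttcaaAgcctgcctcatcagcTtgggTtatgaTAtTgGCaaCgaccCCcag
Actn4 66-base exon: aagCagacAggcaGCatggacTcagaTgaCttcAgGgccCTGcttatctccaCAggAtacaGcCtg
Actn1 66-base exon: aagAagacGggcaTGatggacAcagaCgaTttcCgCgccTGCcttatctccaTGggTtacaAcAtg

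The 81-base exon of Actn4 was included in 188 of 193 reads (97.4%) in replicate 1 and 198 of 201 (98.5%) in replicate 2. The 66-base exon was in 3 of 195 (1.54%) and 2 of 204 (0.980%). The longer form prevailed in both libraries. Both exons are scored largely on the same reads, so 1 share follows closely from the other. Of 394 reads that showed both exons, 386 held the 81-base exon alone, 5 the 66-base exon alone, 3 neither and 0 both. The choices at the 2 places could be read together in 343 Actn4 reads, and 335 of them held the 86-base exon of Actn4-201 with the 81-base exon. Actn1 had few informative reads: its 81-base exon was in 3 of 4 and 2 of 2, and its 66-base exon in 1 of 4 and 0 of 2. The smooth muscle markers beside this were at 97.0 and 76.1 CPM with Myh11 and Myocd at 0 reads, and their part in the shorter form was not tested.

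Between the libraries, 0 of 2 member exons that could be tested, the 81-base and 66-base exons of Actn4, passed the test (Fisher's exact test, adjusted p = 1 for both). Over all 1914 annotated exons tested 0% were called, and 57 had an unadjusted p under 0.05.

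Flna-201 carries a 24-base exon (chrX:74232967-74232990) that its reference transcript Flna-203 lacks. It is shown in capitals between 15 bases of each neighbouring exon, as the member exon for which both forms were well represented.
Flna 24-base exon: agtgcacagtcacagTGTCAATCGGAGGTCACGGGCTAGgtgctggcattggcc

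The exon was included in 7 of 9 informative reads in replicate 1 and in 4 of 13 in replicate 2, so 11 of 22 reads held it (Wilson 95% interval 30.7% to 69.3%). Replicate 1 mostly included it and replicate 2 mostly skipped it. It had too few reads for the test across exons, and its own Fisher's exact test gave an unadjusted p = 0.0805. A difference between the libraries was not detectable at this depth.

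Myh10-201 carries a 30-base exon (chr11:68745935-68745964) and a 63-base exon (chr11:68775365-68775427), which encode inserts in the 2 surface loops of the motor domain known from neuronal myosin IIB. They are shown in capitals with 15 flanking bases because the reads that reached them held neither.
Myh10 30-base exon: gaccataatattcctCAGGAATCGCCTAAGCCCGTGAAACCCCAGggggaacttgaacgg
Myh10 63-base exon: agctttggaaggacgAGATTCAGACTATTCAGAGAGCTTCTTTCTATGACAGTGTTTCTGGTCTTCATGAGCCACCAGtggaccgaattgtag

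Each was skipped in 2 of 2 reads in replicate 1 and in 3 of 3 in replicate 2, and 0 of 5 reads leaves an upper limit of 60% inclusion. In Vcl, the annotated fragment Vcl-202 holds a 135-base exon (chr14:21027083-21027217) between exons 18 and 19, where metavinculin, the striated and smooth muscle form, carries its extra exon. It is shown in capitals after the last 15 bases of the exon before it.
Vcl-202 last exon: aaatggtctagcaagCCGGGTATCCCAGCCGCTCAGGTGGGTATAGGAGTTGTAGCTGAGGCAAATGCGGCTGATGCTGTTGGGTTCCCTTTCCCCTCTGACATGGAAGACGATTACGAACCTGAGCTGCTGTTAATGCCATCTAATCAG

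It was in 0 of 18 reads in replicate 1 and 0 of 16 in replicate 2, and 0 of 34 allows a share of up to 8.82%. For Flnc, the 99-base exon of Flnc-201 lay beyond the reach of every read, so its use could not be counted.

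**Figure D5:**
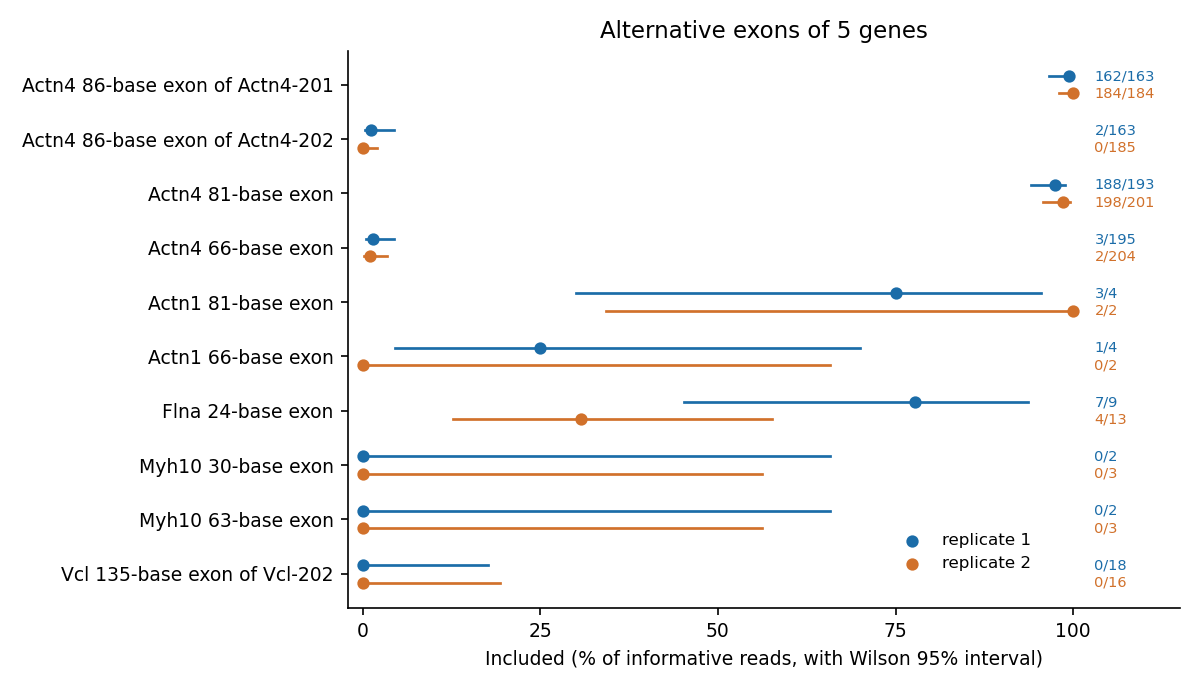
Inclusion of 10 alternative exons in percent of informative reads with Wilson 95% intervals, 1 point per library, with included and informative reads at the right. The Actn4 exons lie at the ends of the scale with narrow intervals, the Flna 24-base exon lies at 7 of 9 and 4 of 13 reads, and the Myh10 and Vcl exons are at 0.

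Annotated transcripts could be assigned mainly in Actn4. Actn4-201 held 146 and 160 reads, 87.7% of the complete-model reads of both libraries. The retained-intron transcript Actn4-203 had 11 and 6 reads, just below the 5% of complete reads set for naming further transcripts. In Vcl, Vcl-201 had 5 and 4 reads. In Actn1, Actn1-201 and the retained-intron transcript Actn1-205 had 2 reads each in replicate 1 and none in replicate 2. Myh9-205 had 1 read in each library, Tln1-202 had 1 read in replicate 1, and Flna, Flnc and Myh10 had none on an annotated transcript.

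Unannotated intron chains were mostly single reads. The 8 genes had 32 such chains, with 24 and 18 reads, of which 28 were 1 read each. The 4 seen in both libraries were all in Actn4 and had 20 or 21 exons. One held the splice from chr7:28916245 to chr7:28918671 with 2 and 2 reads, and another the splice from chr7:28915299 to chr7:28916159 with 1 and 2. The lower coordinates of these splices lie within 2 bases of annotated exon edges, at chr7:28916246 and chr7:28915300. Whether they are separate splice sites or small shifts in alignment was not tested. A chain of 20 exons with the splice from chr7:28894660 to chr7:28896088 had 2 and 1 reads, and a recombination of annotated splice sites with 21 exons had 2 and 2. The splice of the 20-exon chain spans the 81-base and 66-base exons. Its reads are the 3 already counted above with neither exon.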

How the data were processed

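Transcript models of 2 C2C12 libraries were used. Per the file headers, the tables deposited by the authors give unnormalized read counts for each model with at least 1 read, and the deposited annotations hold mm10 coordinates against GENCODE M21. Models carry TALON classes. Aligner, versions, filters and strand use: not given in the sources used here. Counts were summed per gene. Depth was 791850 and 735077 reads.

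Exact binomial tests of levels (at least 10 reads summed, log2 ratios with an offset of 0.5 reads) and Fisher's exact tests of complete share (at least 20 reads per library) and exon inclusion (at least 10 informative reads per library and 5 of each form) compared replicate 2 with replicate 1. P-values were Benjamini-Hochberg adjusted over all features at 0.05. Alternatives used edgeR 4.0.16 (TMM) and DESeq2 1.42.0 scaling in R 4.3.3. Other steps used Python 3.11.15 with scipy 1.17.1. The tests were tried on simulated data. A 3′ end counted as in the last exon within 100 bases.

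Named were all 8 members, exons with at least 5 reads of each form, known alternative exons by count, transcripts with at least 5% of complete reads, structures seen in both libraries and the 3 highest genes of each list. Rarer transcripts, and genes of the lists that differed, were named after their values were seen. The coding span, the reads with at least 2 exons, the longest coding transcript as reference, the 5′ edges, introns and linked exons were also chosen after seeing the data. Members and lists were chosen with earlier results of these data known. The level of 1 gene of the paralog list is not reported here.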

Additional observations from a re-analysis of the deposited data

How the results depend on the processing

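The count of members that passed a test between the libraries stayed at 0 for levels under TMM and DESeq2 scaling, no filter, a 50-read filter, complete models alone, without the genomic class and with at least 2 exons. Fewer members could be tested in some of these: 5 with the 50-read filter, 2 with complete models alone, and 7 in each of the last 2 settings. The count stayed at 0 for complete share under 4 alternatives and for exon inclusion under 3. For complete share, only 2 members could be tested with 50 reads in each library. A count of 0 says little where most members could not be tested. All 45 single-member log2 ratios computed under alternatives kept their side of the threshold. Without the genomic class the Vcl log2 ratio moved from -0.22 to -0.88 (unadjusted p = 0.0261, adjusted p = 0.235, exact binomial), and with at least 2 exons it was -0.16. The 16 Vcl last-exon reads of replicate 1 were classed as incomplete matches (ISM) and the 12 of replicate 2 as genomic. The Flna ratio turned from -0.08 to 0.14 without the genomic class and to 0.12 with at least 2 exons. The share of Actn4 in the 8-gene sum was 43.2% in CPM (40.6% to 45.8% leaving out each library) and 59.2% per kb, since its reference is shorter. The median complete share of the 8 genes was 6.19%, and 1.88% to 10.8% leaving out each library. It was 7.42% without the genomic class, 1.83% for Known models alone and 0% for the coding span. With exon joins counted strictly, 0 member exons could be tested and the Actn4 66-base exon was in 5 of 8 reads, because reads with the 81-base exon no longer counted. No paired analysis was possible because the series has 1 group. Depth limits Actn1, Myh10 and Flnc most, with 21 to 33 reads each.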
